A study of Mus musculus with 23 samples.

Results

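The miR-23, miR-27 and miR-24 microRNAs are made from 2 clusters of hairpin genes, and their mature 3p arms were followed in sorted mouse lung cells from late gestation to postnatal day 28. The members were taken by identifier and were miR-23a-3p (MIMAT0000532) and miR-27a-3p (MIMAT0000537) of the a cluster, miR-23b-3p (MIMAT0000125) and miR-27b-3p (MIMAT0000126) of the b cluster, and miR-24-3p (MIMAT0000219), which both clusters encode. They are 5 of the 602 microRNA probes of a NanoString nCounter mouse panel, an assay that counts barcoded probes without amplification. All 5 were among the 302 microRNAs tested, those whose count exceeded the background limit in at least 2 samples. The limit in a sample was the mean plus 2 SD of 8 negative control rows. The deposited table lists identifiers without names, and other microRNAs are therefore not named.

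The 23 samples came from wild-type mice of strain C57BL6. By their labels 13 were type II pneumocytes (AT2, sorted on CD326), the surfactant-producing cells of the alveolus, and 10 were endothelial cells (EC, sorted on CD31), which line blood vessels. Lungs were taken before birth, on embryonic day 16.5 (E16.5) or 18.5 (E18.5), or after it, on day 1 (P1), day 7 (P7), day 14 (P14) or day 28 (P28). Each stage holds 2 AT2 samples, and P28 holds 3. Each stage holds 2 EC samples, but E18.5 and P1 hold 1. Whether the samples of a group are separate animals is not in the labels, and the spread behind each p-value may therefore be technical. The mix of cells in a sorted sample was not measured, and fewer cells of a type cannot be told apart from less RNA per cell. The labelled cell types could not be checked against marker microRNAs, since no table used here pairs the identifiers with names. The label type II pneumocyte is given at every stage, and AT2 below means that label. Whether the embryonic samples hold the same kind of cell as the later ones was not tested.

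In the mouse each cluster is transcribed as a unit that carries a miR-23, a miR-27 and a miR-24 hairpin in that order. The family is known from vascular biology: miR-23 and miR-27 repress Sprouty2 and Sema6a, inhibitors of endothelial sprouting, and miR-24 represses the endothelial transcription factor Gata2. Outside vessels, miR-27 represses Pparg, a regulator of fat cell formation, and human MYC lowers miR-23, which represses glutaminase. Mature microRNAs of a shared transcript are cut out and decay separately.

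The a cluster spans 404 bases of the plus strand at chr8:84208518-84208921 (GRCm38.p6, the RefSeq release of the mm10 build that the submitters' processing notes name). Its hairpins Mir23a, Mir27a and Mir24-2 lie 79 and 56 bases apart, and in the RefSeq gene table the span overlaps no gene other than these and Mir3074-2. The b cluster spans 792 bases of the plus strand at chr13:63300484-63301275. Its hairpins Mir23b, Mir27b and Mir24-1 lie 154 and 423 bases apart, and the span lies inside the gene Aopep (chr13:62964893-63326096), which encodes an aminopeptidase.

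The mature sequences, from RefSeq, are shown because they set what a value can be assigned to: miR-27a-3p and miR-27b-3p are almost the same RNA, and miR-24-3p is the same RNA from either cluster. The seed, bases 2 to 8, is in capitals, and 4 of the 5 members had an entry.
miR-23a-3p: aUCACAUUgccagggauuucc
miR-27a-3p: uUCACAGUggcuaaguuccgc
miR-27b-3p: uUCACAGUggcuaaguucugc
miR-24-3p: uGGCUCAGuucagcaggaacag
miR-27a-3p (chr8:84208727-84208747) and miR-27b-3p (chr13:63300760-63300780) share the seed UCACAGU and differ by 1 substitution of 21 bases, C19U, counted from the 5′ end with the base of miR-27a-3p first. The seed of miR-23a-3p (chr8:84208563-84208583) has its first 5 bases in common with that of miR-27a-3p. The miR-24-3p entries of Mir24-2 (chr8:84208875-84208896) and Mir24-1 (chr13:63301251-63301272) are identical, so its value is the sum over both clusters and belongs to neither. How far a probe also reads its partner was not tested, for miR-27 or for miR-23. The sequences of the miR-23 members could not be compared, since miR-23b-3p had no entry. Probes differ in efficiency, so a ratio between 2 members is a ratio of signals, and only its difference between samples is read below.

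Values are the authors' scaled values, which are counts times 1 factor per sample. Counts of the microRNA probes totalled 26640 to 571706 per sample. The 2 lowest totals were those of AT2 P28 replicate 1, with 26640, and EC E18.5 replicate 1, with 36373. miR-23a-3p, miR-23b-3p and miR-27a-3p were above the background limit in 23 of 23 samples. miR-27b-3p and miR-24-3p were above it in 22, the exception being EC E18.5 replicate 1, where they had 8 and 9 counts. In AT2 P28 replicate 1 the control rows stood at 1 count each, so the limit there was 1.0 count and tells little of its 8 counts of miR-27b-3p and 15 counts of miR-24-3p. Among EC samples, replicate 2 of P14 stood closest to an AT2 sample. Over the tested microRNAs its highest correlation was 0.938 with EC P1 replicate 1, and it was 0.932 with AT2 P7 replicate 2. Next came EC P1 replicate 1, with 0.941 to EC P7 replicate 2 and 0.909 to AT2 P7 replicate 1.

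**Figure D1:**
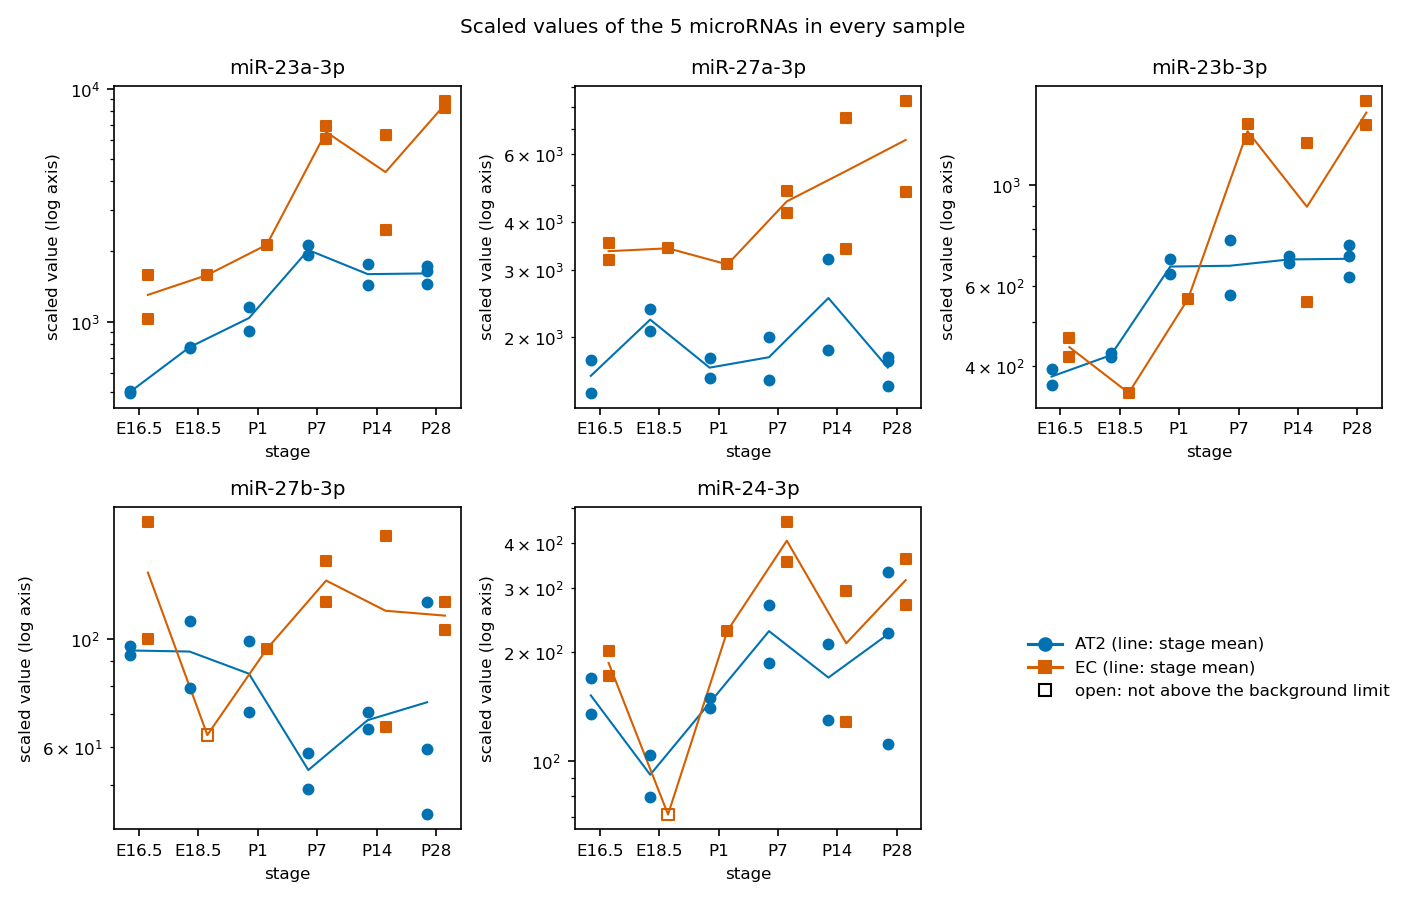
Scaled value of each member in every sample (vertical log axis, its own range in each panel) by stage, with AT2 cells as circles and EC as squares, lines through the arithmetic stage means, and open symbols for values not above the background limit. In the deposited values miR-23a-3p and miR-27a-3p are lower in AT2 cells at every stage. The b members and miR-24-3p are higher in AT2 cells at E18.5, where EC has 1 sample.

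The first comparison asked how AT2 cells and EC differ in the members over all stages. The a cluster members were lower in AT2 cells: the fitted log2 difference (± SE) was −1.47 ± 0.16 for miR-23a-3p and −1.16 ± 0.17 for miR-27a-3p, which is 2.77-fold and 2.23-fold lower. The b cluster members and miR-24-3p showed differences of −0.34 to −0.45 that did not pass the test (limma, Benjamini-Hochberg adjusted p under 0.05 over all 302). Of the 5 members, 2 passed the test, both as lower in AT2 cells, where 47.7% of all tested microRNAs passed as lower and the median difference of all tested was −0.43. The b members and miR-24-3p thus lay near the median of the panel and the a members below it.

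miR-23a-3p had 494 to 2134 in the 13 AT2 samples with a median of 1430, against 1026 to 8876 in the 10 EC samples with a median of 4281. At each of the 6 stages every AT2 sample was below every EC sample in the deposited values, although the ranges over all stages overlap. As percentages of the total microRNA count the cell types overlapped at E16.5, with 0.2751 and 0.3133 in AT2 cells, against 0.2859 and 0.4498 in EC. They also overlapped at P14, where AT2 replicate 2 had 1.1993 and EC replicate 2 had 1.1951. The limma test gave an adjusted p of 7.5e-07, and in the 9 pairs of samples that carry the same ID in their titles the AT2 sample was lower in 9.

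miR-27a-3p had 1427 to 3202 in the AT2 samples with a median of 1764, against 3093 to 8293 in the EC samples with a median of 3867. The ranges met only through AT2 P14 replicate 1, at 3202, which exceeded EC P1 replicate 1 and EC E16.5 replicate 2. Within each stage the AT2 samples were below the EC samples in the deposited values. As percentages of the total microRNA count they were above at E18.5, with 1.376 and 1.365 in AT2 cells, against 1.182 in EC. At E16.5 and P7 these percentages overlapped between the cell types. limma gave an adjusted p of 1.3e-05, and the AT2 sample was lower in 9 of 9 pairs.

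miR-23b-3p had 363 to 757 in AT2 cells with a median of 637, against 349 to 1536 in EC with a median of 902. Its difference was −0.34 ± 0.15 (limma adjusted p = 0.055), and the AT2 sample was lower in 6 of 9 pairs. With the title ID as a block it passed, at −0.33 (limma adjusted p = 0.039). miR-27b-3p was the dimmest probe, with 43.5 to 119 in AT2 cells and a median of 70.8, against 63.4 to 174 in EC and a median of 111.7. Its difference was −0.45 ± 0.21 (limma adjusted p = 0.066). miR-24-3p had 79.6 to 334 in AT2 cells with a median of 149, against 71.3 to 457 in EC with a median of 250, a difference of −0.38 ± 0.21 (limma adjusted p = 0.11). For these 3 microRNAs the ranges of the cell types overlapped widely.

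The calls on the b members and miR-24-3p moved with single EC samples. Leaving out a sample changes the spread estimated for every microRNA. The share of all tested microRNAs that passed in such a fit is not given here, so only the differences are given. Without EC P14 replicate 2 they were −0.44 for miR-23b-3p, −0.56 for miR-27b-3p and −0.48 for miR-24-3p. Without EC E18.5 replicate 1 they were −0.46, −0.65 and −0.53 for the same 3. The calls also moved with the scaling. With values as shares of the total count, miR-23a-3p still passed as lower in AT2 cells, at −0.67 (limma adjusted p = 0.021), and miR-27a-3p did not, at −0.36 (limma adjusted p = 0.16). The other 3 were then at 0.34 to 0.46 and did not pass, while the median of all tested microRNAs moved to 0.33.

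Stage by stage, miR-23a-3p passed the limma test as lower in AT2 cells at E16.5, P7, P14 and P28, and miR-27a-3p at E16.5, P7 and P28. miR-23b-3p passed at P7 and P28, miR-27b-3p at P7 alone, and miR-24-3p at no stage. At E16.5, 2 of the 5 members passed, where 19.5% of tested microRNAs were called lower in AT2 cells. At E18.5 and at P1, with 1 EC sample each, 0 members passed, against backgrounds of 1.99% and 6.95%, and at an unadjusted p under 0.05 limma had 1 member, miR-23a-3p, at each. At P7 4 members passed (background 31.8%), at P14 1 (19.2%) and at P28 3 (18.2%). These counts moved when 1 sample of the stage was left out, to 0 or 1 at E16.5, 1 or 2 at P7, 0 to 3 at P14 and 2 or 3 at P28.

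At P14 the count turned on the EC samples, which differed widely from each other. miR-23a-3p had 1430 and 1768 in AT2 cells, against 6290 and 2470 in EC (−1.31 ± 0.38, limma adjusted p = 0.024). Without EC P14 replicate 2 its difference was −1.98 (adjusted p = 6.6e-04), and miR-23b-3p, at −0.85 (limma adjusted p = 0.043), and miR-27a-3p, at −1.62 (limma adjusted p = 0.0058), passed as well. With both EC samples these 2 were at −0.27 (limma adjusted p = 0.57) and −1.05 (limma adjusted p = 0.061). Without EC P14 replicate 1 no member passed by limma, adjusted or at an unadjusted p under 0.05, and miR-23a-3p was at −0.64 (adjusted p = 0.40). It did not pass without AT2 P14 replicate 1 either, at −1.16 (limma adjusted p = 0.11).

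The most calls fell at P7 and P28 with the values as deposited. At P7 miR-23a-3p had 1923 and 2134 in AT2 cells, against 6929 and 6092 in EC (−1.68 ± 0.38 on the log2 scale, limma adjusted p = 0.0037). At the same stage miR-23b-3p had 757 and 573 in AT2 cells, against 1366 and 1264 in EC (−0.996 ± 0.35, limma adjusted p = 0.029). miR-27b-3p had 58.2 and 49.2 in AT2 cells, against 145 and 119 in EC (−1.28 ± 0.48, limma adjusted p = 0.040). In each case both AT2 samples were below both EC samples. These calls rested on the scaling: at P7 1 member, miR-23a-3p, passed with a common median, and 0 with quantile normalization, with shares of the total count or with edgeR, where the unadjusted p was under 0.05 for 0, 0 and 1. As a share of the total miR-23a-3p was at −0.31 (limma adjusted p = 0.79), and miR-23b-3p, miR-27a-3p and miR-27b-3p were at 0.37, 0.0081 and 0.0749, while the median of all tested microRNAs moved to 0.48.

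At P28 miR-23a-3p had 1643, 1739 and 1449 in AT2 cells, against 8876 and 8217 in EC. The log2 difference of −2.41 ± 0.34 (limma adjusted p = 6.3e-05), which is 5.32-fold lower in AT2 cells, was the widest gap of any member at any stage. miR-27a-3p had 1725, 1485 and 1777 in AT2 cells, against 8293 and 4795 in EC (−1.93 ± 0.36, limma adjusted p = 4.9e-04). miR-23b-3p had 699, 740 and 627 in AT2 cells, against 1355 and 1536 in EC (−1.07 ± 0.32, limma adjusted p = 0.016). Under each of the 15 alternatives other than leaving out 1 sample, miR-23a-3p and miR-27a-3p passed at P28, and miR-23b-3p passed in 12. At E16.5 miR-23b-3p had 363 and 395 in AT2 cells, against 461 and 419 in EC, a difference that did not pass (−0.21 ± 0.35, limma adjusted p = 0.66). The 2 calls at E16.5, of miR-23a-3p and miR-27a-3p, moved with the scaling. With a common median 2 members passed there, with quantile normalization or edgeR 1, and with shares of the total count 0. Over the same 15 alternatives the E16.5 difference was −1.35 to −0.29 for miR-23a-3p and −1.09 to −0.03 for miR-27a-3p.

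**Figure D2:**
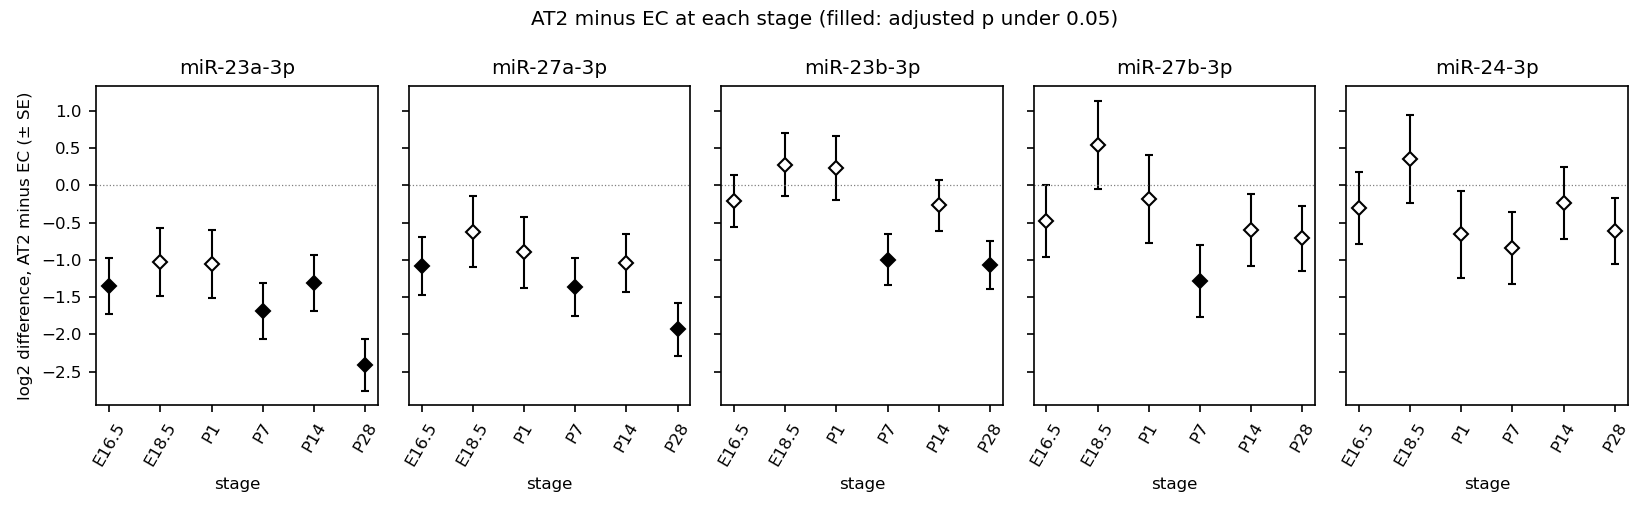
Fitted log2 difference AT2 minus EC with its standard error (vertical axis) at each stage for the 5 members, filled where the limma adjusted p was under 0.05. The a members lie below 0 at all 6 stages, down to −2.41 for miR-23a-3p at P28, and the b members and miR-24-3p lie above 0 at E18.5.

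The next comparisons asked how the members change with age in each cell type, as the mean of P7, P14 and P28 (late) minus the mean of E16.5 and E18.5 (early). Both miR-23 members and miR-24-3p were higher late in both cell types, and neither miR-27 member passed in either. In AT2 cells 3 of 5 members passed as higher late, where 11.3% of tested microRNAs did and the median of all tested was −0.64. In EC 3 of 5 passed as higher late, where 9.27% did and the median was −0.57.

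In AT2 cells miR-23a-3p had 1430 to 2134 in the 7 late samples with a median of 1739, against 505, 494, 773 and 781 in the 4 early ones. It was higher late by 1.47 ± 0.24 (2.77-fold, limma adjusted p = 5.1e-05), and the groups did not overlap in the deposited values. miR-23b-3p had 573 to 757 late with a median of 698, against 363, 395, 426 and 419 early. It was higher late by 0.76 ± 0.22 (1.69-fold, limma adjusted p = 0.0082), and the groups did not overlap in the deposited values either. As percentages of the total microRNA count the groups of both overlapped through AT2 P28 replicate 3. That sample had 0.2952 for miR-23a-3p, against 0.2751 to 0.5156 early, and 0.1278 for miR-23b-3p, against 0.198 to 0.2766 early. How many of the other tested microRNAs did not overlap was not counted, in AT2 cells or in EC. The plot of values by stage shows that most of the miR-23b-3p step in AT2 cells was present at P1, where it had 637 and 687.

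In EC the same 2 microRNAs were higher late as well. miR-23a-3p had 2470 to 8876 in the 6 late EC samples with a median of 6610, against 1026, 1579 and 1585 in the 3 early ones (2.08 ± 0.28, 4.24-fold, limma adjusted p = 1.7e-05). miR-23b-3p had 552 to 1536 late with a median of 1309, against 461, 419 and 349 early (1.57 ± 0.26, 2.96-fold, limma adjusted p = 1.4e-04). In both cases the lowest late value was that of EC P14 replicate 2. The groups did not overlap, in the deposited values or as percentages of the total microRNA count.

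miR-24-3p, the product of both clusters, had 111.5 to 334 in late AT2 samples with a median of 210, against 169, 135, 79.6 and 104 in early ones. Its difference of 0.74 ± 0.30 was at the threshold (limma adjusted p = 0.04993), the groups overlapped, and it passed in 5 of the 23 fits that left out 1 sample. In EC it had 129 to 457 late with a median of 325, against 202, 172 and 71.3 early (1.33 ± 0.35, limma adjusted p = 0.0095). That call rested on EC E18.5 replicate 1, where the value was below the background limit: without it the difference was 0.64 (limma adjusted p = 0.24).

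The miR-27 members did not pass in either cell type with the values as deposited. miR-27a-3p had 1485 to 3202 in late AT2 samples with a median of 1777, against 1737, 1427, 2371 and 2067 in early ones, a difference of 0.04 ± 0.25 (limma adjusted p = 0.89). In EC it had 3399 to 8293 late with a median of 4809, against 3514, 3186 and 3409 early (0.63 ± 0.29, limma adjusted p = 0.084). Without EC P14 replicate 2, the lowest late EC sample, miR-27a-3p passed in EC, at 0.82 (limma adjusted p = 0.022). miR-27b-3p had 43.5 to 119 in late AT2 samples with a median of 59.5, against 96.7, 92.6, 109 and 79.3 in early ones (−0.57 ± 0.30, limma adjusted p = 0.12). In EC miR-27b-3p had 66.0 to 163 late with a median of 119, against 174, 99.9 and 63.4 early, a difference of 0.33 ± 0.35 (limma adjusted p = 0.47). Without EC E18.5 replicate 1, below background for this probe, that difference was −0.20 (limma adjusted p = 0.72).

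The calls with age also depended on the scaling. With samples shifted to a common median, miR-27a-3p passed as higher late by 0.93 in AT2 cells (limma adjusted p = 0.0028) and by 1.24 in EC (adjusted p = 0.0023). In EC it also passed with quantile normalization, at 0.61 (limma adjusted p = 0.025), and with edgeR, at 1.18 (edgeR adjusted p = 0.0071). With the common median, the median of all tested microRNAs stood at 0.24 in AT2 cells and 0.04 in EC. As shares of the total count, miR-23b-3p in AT2 cells no longer passed, at 0.60 (limma adjusted p = 0.17), nor did miR-24-3p, at 0.58 in AT2 cells (limma adjusted p = 0.23) and 1.24 in EC (limma adjusted p = 0.063). miR-27b-3p in AT2 cells turned to 0.31 with the common median (limma adjusted p = 0.47). miR-23a-3p stayed higher late in both cell types in each of 15 alternative fits besides those that leave out 1 sample, by 1.31 to 2.36 in AT2 cells and 1.63 to 2.69 in EC.

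**Figure D3:**
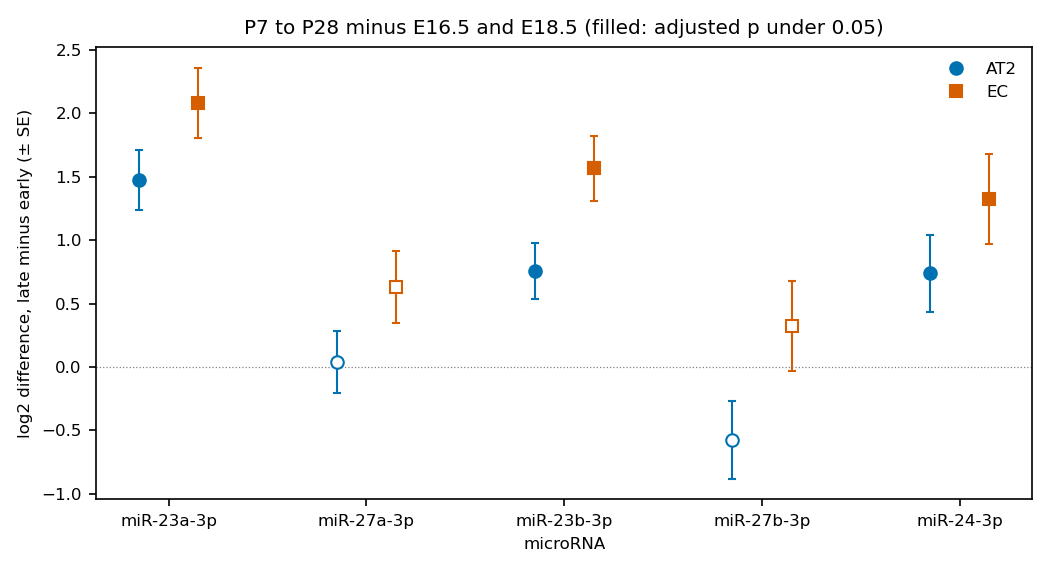
Fitted log2 difference late minus early with its standard error (vertical axis) for each member, AT2 cells as circles and EC as squares, filled where the limma adjusted p was under 0.05. The miR-23 members lie highest in each cluster (1.47 and 0.76 in AT2 cells, 2.08 and 1.57 in EC), and the miR-27 members lie between −0.57 and 0.63.

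The AT2 change minus the EC change was between −0.90 and −0.59 on the log2 scale for the 5 members. For miR-27b-3p the signs of the changes differed, at −0.57 in AT2 cells and 0.33 in EC, and for the other 4 the change was positive in both and numerically smaller in AT2 cells. Of these differences 0 of 5 passed the limma interaction test, where 6.29% of tested microRNAs did. The unadjusted limma p was under 0.05 for 1 of them, miR-23b-3p, and edgeR called 0. The nearest was miR-23b-3p, at −0.81 ± 0.34 (limma adjusted p = 0.20). It passed without EC P14 replicate 2, at −1.004 (limma adjusted p = 0.017), and miR-24-3p turned to 0.10 without EC E18.5 replicate 1 (limma adjusted p = 0.95). By the limma F-test over the 6 stages, 1 of 5 members, miR-23a-3p, differed among AT2 stages (adjusted p = 0.0013), where 49% of tested microRNAs did. With array weights 3 of 5 members differed, where 69.2% of all tested did. For miR-23b-3p the call among AT2 stages moved without EC P14 replicate 2, and the AT2 calls also moved without EC P14 replicate 1. Leaving out an EC sample does not change the AT2 stage means, but it changes the spread estimated from all groups. Among EC stages miR-23a-3p (adjusted p = 1.4e-04), miR-23b-3p (adjusted p = 0.0020) and miR-24-3p (adjusted p = 0.047) differed by limma, where 27.2% did. miR-24-3p did not without EC E18.5 replicate 1 (limma adjusted p = 0.29).

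The a and b clusters were then compared inside each sample. The ratio of the a member to the b member does not contain the sample's scaling factor. Apart from the 1 added before the logarithm, it is free of the choice of that factor. Quantile normalization is not such a factor and can change the ratio, and the ratios were not tested with it. With it AT2 minus EC was −0.64 for miR-23a-3p and −0.65 for miR-23b-3p at P7. The same 2 were at −1.14 and −0.18 at P14, and at −2.05 and −0.82 at P28. Both ratios were lower in AT2 cells than in EC, and the miR-23 ratio was higher late than early in both cell types. These were 6 tests on 2 ratios, and p-values were adjusted over the 6.

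The signal of miR-23a-3p over that of miR-23b-3p was 1.25 to 3.72 in AT2 samples with a median of 2.12, against 2.23 to 6.55 in EC with a median of 4.68. At each stage the AT2 samples were below the EC samples, as the plot of the ratio by stage shows. Within the 9 pairs of the same title ID the log2 ratio was lower in AT2 cells in 9 of 9, with a mean difference of −1.13 ± 0.40 (SD, n = 9 pairs). The exact two-sided sign-flip test gave p = 0.0039, the smallest it can give with 9 pairs (adjusted p = 0.012).

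The signal of miR-27a-3p over that of miR-27b-3p was 14.9 to 45.2 in AT2 samples with a median of 26.1, against 20.2 to 79.6 in EC with a median of 37.8. The log2 ratio was lower in AT2 cells in 8 of 9 pairs, with a mean difference of −0.70 ± 0.62 (SD, n = 9 pairs). The exact sign-flip test gave p = 0.012 (adjusted p = 0.023). The exception was the pair at P7 whose AT2 member is replicate 2, with 40.6 in AT2 cells against 35.4 in EC. With the 8 miR-27b-3p counts of EC E18.5 replicate 1 and of AT2 P28 replicate 1, single values of this ratio are far less exact than those of miR-23.

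With age, the miR-23 ratio in AT2 cells was 2.12 to 3.72 in the 7 late samples with a median of 2.35, against 1.39, 1.25, 1.81 and 1.86 in the 4 early ones. The groups did not overlap, and the log2 ratio was higher late by 0.70 (1.62-fold). The exact permutation test gave p = 0.0030, the smallest it can give for 7 against 4 (adjusted p = 0.012). Here and in EC the test treats samples of the same stage as separate units. The stages are too few to be tested as the units themselves. In EC the ratio was 4.48 to 6.55 in the 6 late samples with a median of 5.07, against 2.23, 3.77 and 4.55 in the 3 early ones. The log2 ratio was higher late by 0.62 (exact permutation p = 0.024, adjusted p = 0.036). The EC groups overlapped through EC E18.5 replicate 1, at 4.55, and without it the difference was 0.84 (exact permutation, adjusted p = 0.0536). The groups then did not overlap, and the unadjusted p was the smallest that test can give for so few samples. Without EC E16.5 replicate 1, the lowest at 2.23, the EC difference was 0.33 and did not pass (exact permutation, adjusted p = 0.13). EC P14 replicate 2, low in the level of every member among late EC samples, had a ratio of 4.48, beside 5.07 in EC P14 replicate 1. P1 belongs to neither group, and the miR-23 ratio there was below that of E18.5. It was 1.43 and 1.69 in AT2 cells, after 1.81 and 1.86 at E18.5, and 3.8 in EC, after 4.55.

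For miR-27 the a-to-b ratio in AT2 cells was 14.9 to 45.2 late with a median of 29.0, against 18.0, 15.4, 21.7 and 26.1 early, a log2 difference of 0.57 (exact permutation p = 0.076, adjusted p = 0.091). In EC it was 33.4 to 79.6 late with a median of 43.0, against 20.2, 31.9 and 53.7 early, a log2 difference of 0.48 (exact permutation p = 0.26, adjusted p = 0.26). Neither passed, and the groups overlapped in both cell types. In EC they overlapped through the 53.7 of EC E18.5 replicate 1, where miR-27b-3p was below the background limit. Without it the EC difference was 0.84 and did not pass (exact permutation, adjusted p = 0.0758).

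**Figure D4:**
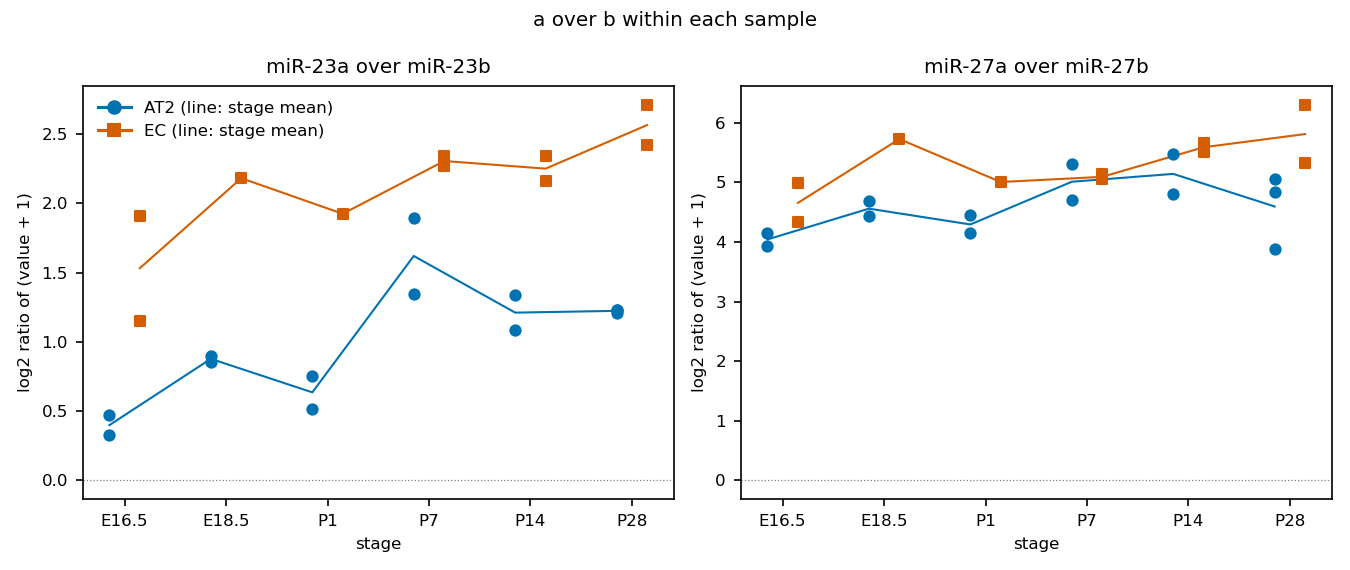
Log2 ratio of the a member over the b member (vertical axis) in every sample by stage, for miR-23 and for miR-27, with AT2 cells as circles, EC as squares and lines through stage means. For miR-23 the AT2 samples lie below the EC samples at each of the 6 stages, and for miR-27 the cell types overlap at P7.

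The miR-23 and miR-27 members of one cluster can be set against each other in the same way. These ratios were chosen after the values were seen and are given as a description, with no test. The signal of miR-23a-3p over miR-27a-3p was 0.447 to 1.25 in late AT2 samples with a median of 0.955, against 0.291, 0.346, 0.326 and 0.378 in early ones. In EC it was 0.727 to 1.71 late with a median of 1.25, against 0.292, 0.496 and 0.465 early. In both cell types the late samples were all above the early ones, with P1 between the stage means of E18.5 and P7.

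The b cluster gave a like picture. The signal of miR-23b-3p over miR-27b-3p was 5.26 to 17 in late AT2 samples with a median of 11.7, against 3.76, 4.26, 3.91 and 5.28 in early ones. The groups met only at AT2 P28 replicate 3, at 5.26, the late sample in which miR-27b-3p was highest. In EC the ratio was 7.63 to 13.0 late with a median of 10, against 2.65, 4.19 and 5.50 early, and the groups did not overlap. The 5.50 is that of EC E18.5 replicate 1, whose miR-27b-3p was below the background limit. Medians of this ratio over all stages were 9.02 in AT2 cells and 8 in EC, with wide overlap.

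**Figure D5:**
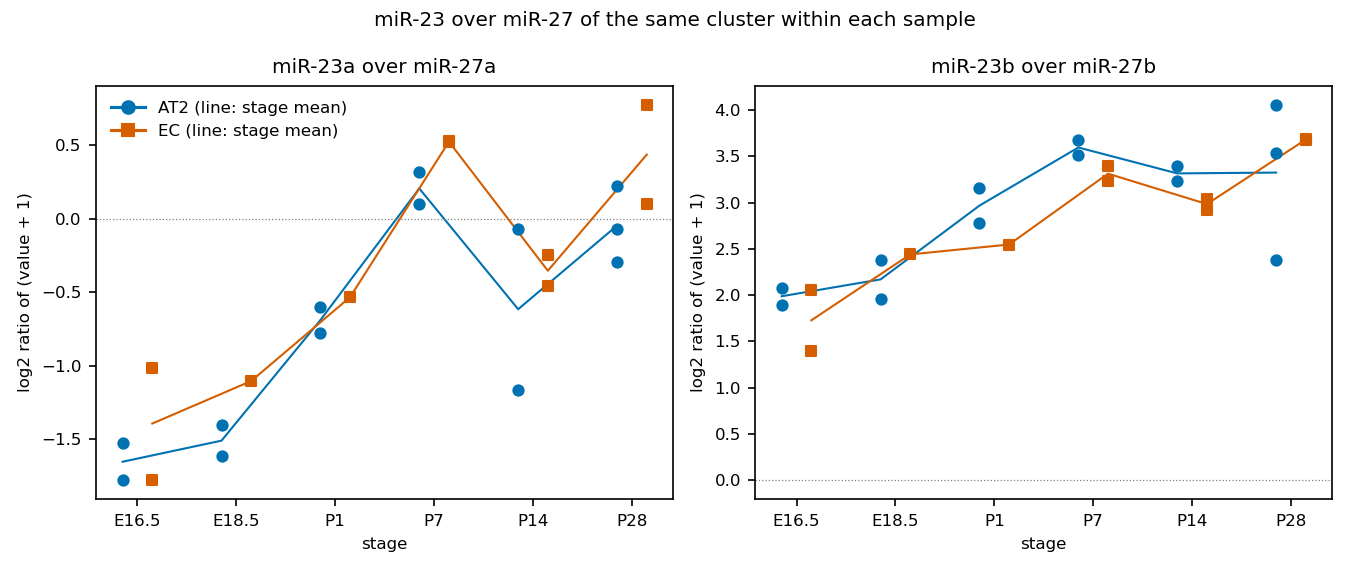
Log2 ratio of the miR-23 member over the miR-27 member of the same cluster (vertical axis) in every sample by stage, for the a cluster and the b cluster, with AT2 cells as circles, EC as squares and lines through stage means. In all 4 combinations of cluster and cell type the P7 to P28 samples lie above the embryonic ones, except AT2 P28 replicate 3 in the b cluster, whose signal ratio of 5.26 lies just under the 5.28 of AT2 E18.5 replicate 2.

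miR-24-3p was set against its partners the same way, also as a description chosen after the values were seen. Its signal over that of miR-23b-3p was 0.160 to 0.451 in late AT2 samples, against 0.187 to 0.47 in early ones, and 0.199 to 0.334 in late EC samples, against 0.205 to 0.437 in early ones. These ranges overlapped in both cell types, in EC through the 0.205 of EC E18.5 replicate 1, beside 0.437 and 0.411 in the E16.5 samples. Over miR-27b-3p it was 1.84 to 7.67 in late AT2 samples, against 0.729 to 1.75 in early ones, without overlap. In EC the same ratio was 1.81 to 3.16 in late samples, against 1.16 and 1.72 in the E16.5 samples, without overlap. EC E18.5 replicate 1 gave 1.12, a ratio of 2 values below the background limit. Over miR-23a-3p it was 0.0679 to 0.335 in AT2 samples with a median of 0.133, against 0.0304 to 0.196 in EC with a median of 0.0552.

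Across samples the miR-23 members followed each other most closely of the 10 pairs of members. Whether their probes read each other was not tested. The correlation of the log2 values of miR-23a-3p and miR-23b-3p was 0.867 over the 13 AT2 samples and 0.963 over the 10 EC samples. That of miR-23a-3p and miR-27a-3p, neighbours on the a cluster, was 0.090 in AT2 cells and 0.790 in EC. For miR-23b-3p and miR-27b-3p, neighbours on the b cluster, it was −0.538 in AT2 cells and 0.49 in EC. miR-24-3p had 0.522 with miR-23b-3p and −0.479 with miR-27b-3p in AT2 cells, against 0.861 and 0.737 in EC. The points of each correlation share the sample's scaling factor and the stages, and in EC they share the low EC P14 replicate 2, so the values describe these samples only.

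Among the other tested microRNAs, the pattern most like that of miR-27a-3p over the 12 group means was that of MIMAT0000210, with a Pearson r of 0.972. The one most like miR-23a-3p was MIMAT0000674, with 0.924. The highest values were lower for miR-23b-3p, at 0.911, miR-27b-3p, at 0.823, and miR-24-3p, at 0.741.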

How the data were processed

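The microRNA panel was run on total RNA of sorted lung cells, per the labels' protocols. What the authors deposited is a signal, namely nCounter counts times 1 factor per sample (0.296 to 7.93), as the values show. Of 13861 values 99.97% came out as whole counts within 0.1. The normalization is not given in the sources used here. In some columns values under 1 had been set to 1 (215 values). A larger factor raises background with the signal.

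From these values, limma 3.58.1 in R 4.3.3 (lmFit and eBayes with an intensity trend) was run on log2(value + 1) with 12 group means over 23 samples. That scale understates changes of low microRNAs. Two-sided p-values were adjusted by Benjamini-Hochberg over the 302 microRNAs tested, and a call needed an adjusted p under 0.05. A group with 1 sample has the spread of the other groups assumed for it. The ratios of a to b members were tested with exact sign-flip tests within the 9 title IDs that both cell types carry and with exact permutation tests between late and early samples, adjusted over 6 tests.

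Every member is named. Of the microRNAs most alike, the rule was to name 3 per member. It was not kept: only 2 identifiers in all are given, since the tables used here pair none with a name. The members and lists were chosen with earlier results of these data known. Other settings tried were 3 scalings, other filters, a pseudocount of 10, no trend, array weights, the title ID as a block, the title prefix as a covariate and samples left out, and edgeR 4.0.16 (quasi-likelihood) was run on the recovered counts. Background subtraction in the fits, a common floor of 95.1 and leaving out the 2 samples of lowest count were chosen after seeing the data, as were the settings for single stages other than scaling and block. The limma and edgeR steps and the exact tests were tested on simulated data.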

Additional observations from a re-analysis of the deposited data

Results flagged for a closer look

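The 4 values below were far from the other samples of their set. A set was the early or late samples of a cell type, 21 sets of 4 to 7 samples were examined, and chance alone puts about 1 set in 20 past this limit. miR-23a-3p at 2470 and miR-23b-3p at 552 in EC P14 replicate 2 lay far below the other 5 late EC samples. miR-27a-3p at 3202 in AT2 P14 replicate 1 lay far above the other 6 late AT2 samples, while miR-23a-3p of the same sample, at 1430, was the lowest of the late AT2 samples. The log2 ratio of miR-23a-3p over miR-23b-3p, 1.90 in AT2 P7 replicate 2, lay far above those of the other late AT2 samples. The cause of each was not tested.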

How the results depend on the processing

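Of 760 member values under alternative processing, 684 kept direction and side of the threshold, 30 newly passed, 29 no longer passed and 17 changed sign. The share of all tested moved too, from 49% to 69.2% in the AT2 F-test with array weights. The counts below thus show no gain by themselves. The number of members that passed AT2 minus EC, 2 as reported, was 1 with values as shares of the total count, 4 with array weights, 4 without 3 EC samples together (P14 replicate 2, P28 replicate 2 and the P1 sample), 4 without the 2 samples of lowest count, and 2 to 5 when 1 sample was left out. Over single stages 10 calls became 5 with a common median, 6 with quantile normalization, 2 as shares of the total and 3 with edgeR (at P7 1, 0, 0 and 0 in place of 4), and 7 to 12 with 1 sample left out. Late minus early in AT2 cells, 3 calls became 1 as shares of the total, and 2 to 3 with 1 sample left out. In EC 3 became 5 with quantile normalization and 2 to 4 with 1 sample left out. The interaction gave 1 call in place of 0 without the 3 EC samples, and 0 to 1 with 1 sample left out. The F-test over AT2 stages, 1 as reported, gave 4 with a common median, 3 with quantile normalization, array weights or edgeR, 2 with the title prefix or without the 3 EC samples, and 1 to 2 with 1 sample left out. Over EC stages 3 became 1 as shares of the total, and 2 to 3 with 1 sample left out.

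The 17 values that changed sign passed neither as reported nor after. For AT2 minus EC miR-23b-3p was 0.0105 with a common median, 0.0067 with edgeR and 0.46 as a share of the total, where miR-27b-3p was 0.34 and miR-24-3p was 0.41. Late minus early in AT2 cells, miR-27b-3p was 0.31 with a common median, 0.22 with quantile normalization and 0.0676 with edgeR. miR-27a-3p was −0.12 as a share of the total and −0.0908 to 0.173 with 1 sample left out. In EC miR-27b-3p was −0.20 without EC E18.5 replicate 1 or the 2 samples of lowest count (−0.20 to 0.54 with any 1 sample left out). The interaction of miR-24-3p was −0.78 to 0.10 with 1 sample left out and 0.24 without the 2 samples of lowest count. Splits of all calls moved with the scaling: for AT2 minus EC 59 higher and 144 lower became 88 and 102 with a common median, 89 and 90 with quantile normalization, 90 and 102 with edgeR, and 42 lower of 154 calls as shares of the total. Late minus early in AT2 cells, 34 higher and 121 lower became 77 and 48 with a common median, 62 and 65 with quantile normalization and 64 and 65 with edgeR. In EC 28 and 84 became 52 and 23, 47 and 44, and 47 and 25 under the same 3.

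The miR-23 ratio between cell types was −1.22 to −1.07 with 1 sample left out, and the miR-27 ratio −0.81 to −0.61, and both passed each time. Without the 3 EC samples, 6 pairs remained, and the ratios were −1.07 (adjusted p = 0.0625 by the exact test) and −0.69 (adjusted p = 0.113), and the miR-23 ratio late minus early in EC was 0.67 (adjusted p = 0.0625). The miR-23 ratio with age was 0.59 to 0.78 in AT2 cells with 1 sample left out, and passed each time. In EC it was 0.33 to 0.84, did not pass in 8 of those 23 fits, and was 0.58 after background subtraction (adjusted p = 0.0536 by the exact test). The miR-27 ratio with age in AT2 cells was 0.45 to 0.73 with 1 sample left out, and passed without AT2 P28 replicate 3.

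Deviations of same-ID samples from means of groups of 2 mirror each other. Their 7 pairs thus hold 5 separate correlations, 4 over 0.1 and 1 at −0.02. The IDs were taken as a shared label only. With the title ID as a replicate block, 3 members passed AT2 minus EC, miR-23b-3p being added at −0.33 (limma adjusted p = 0.039). No other AT2 minus EC, age or interaction call changed. Unpaired, exact permutation within stages gave ratios of −1.13 (miR-23) and −0.71 (miR-27), both past the threshold. The cause of these changes was not tested. Depth limits miR-27b-3p and miR-24-3p most, at 8 to 15 counts in the 2 shallowest samples.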
